A study of Mus musculus with 8 samples.

Results

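The genes described here encode the heat shock chaperones of the cytosol and of mitochondria, with the cochaperones that steer them. They were chosen by name as the HSP70, HSP110, HSP90, HSP40, HSP60, HSP10 and small heat shock protein genes with their BAG, HSP90 and HSP70 cochaperones, which gave 43 of the 55359 gene identifiers in the deposited count table. All 43 were found in the table and 42 had enough counts to be tested, among 15164 tested genes. Hspa13, listed with the HSP70 genes, encodes a protein of the endoplasmic reticulum. Dedd2, listed with the HSP70 cochaperones, encodes a death effector domain protein.

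The cells were MLO-Y4, a mouse line labelled as wild-type osteocytes, kept in dishes coated with rat tail collagen. They were irradiated 72 h after seeding, with the medium removed, by a pulsed Er:YAG laser at 2940 nm for 1 min. The fluence was 6 J/cm2, and the emitter stood 25 cm above the bottom of a 35-mm dish. Poly(A) RNA was sequenced from 4 irradiated libraries, collected 6 h later and called L5 to L8 after the column numbers of the deposited table. It was also sequenced from 4 non-irradiated libraries, C5 to C8, whose time of collection is not given in the sources used here. The labels do not say whether the non-irradiated dishes also had their medium removed, or whether the 4 libraries of a group came from separate cultures, so the p-values measure only the spread between these libraries. The comparison asks what a single exposure did to the expression of these cells. In bulk RNA a change in the share of cells of one kind and a change in RNA per cell cannot be told apart.

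Chaperones bind proteins that are unfolded or still folding. HSP70 does this in cycles of ATP hydrolysis: J-domain proteins (HSP40) bring substrates and trigger hydrolysis, while HSP110, BAG and related exchange factors release the nucleotide. HSP90 takes over later folding steps of kinases and receptors, small heat shock proteins hold substrates without ATP, and mitochondria have their own HSP70, HSP90 and the HSP60 and HSP10 chamber. When unfolded proteins pile up, heat shock factor 1 (HSF1) binds heat shock elements, inverted repeats of the unit GAA, and switches on Hspa1a, Hspa1b, Hsph1, Dnajb1, Hspb1 and others.

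Most chaperone genes showed no difference past the threshold between irradiated and non-irradiated cells. Of the 42 tested genes 5 were higher, 3 were lower and 34 did not pass the test (quasi-likelihood test of edgeR at an adjusted p under 0.05, by Benjamini-Hochberg over all tested genes). Of all tested genes 15.0% passed it, 8.22% being higher and 6.75% lower, against 19% of the chaperone genes, of which 11.9% were higher and 7.14% lower. Hsph1, Dnajb4, Dnaja4, Hsp90aa1 and Hspd1 rose, and Trap1, Cryab and Hspa4l fell. The largest rise was 1.22-fold, in Hsph1. The median log2 fold change of the 42 genes was -0.025, against -0.0065 over all tested genes, and the median size of the change was 0.079, against 0.13. The members' summed level lay between 8253 and 8346 CPM (a gene's count scaled to library size, with TMM factors) in non-irradiated libraries and between 8159 and 8484 CPM in irradiated ones, and the groups overlapped. Their median level without irradiation was 68.6 CPM, against 23.4 CPM over all tested genes. The shares and sizes of change given above were not matched for level.

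**Figure D1:**
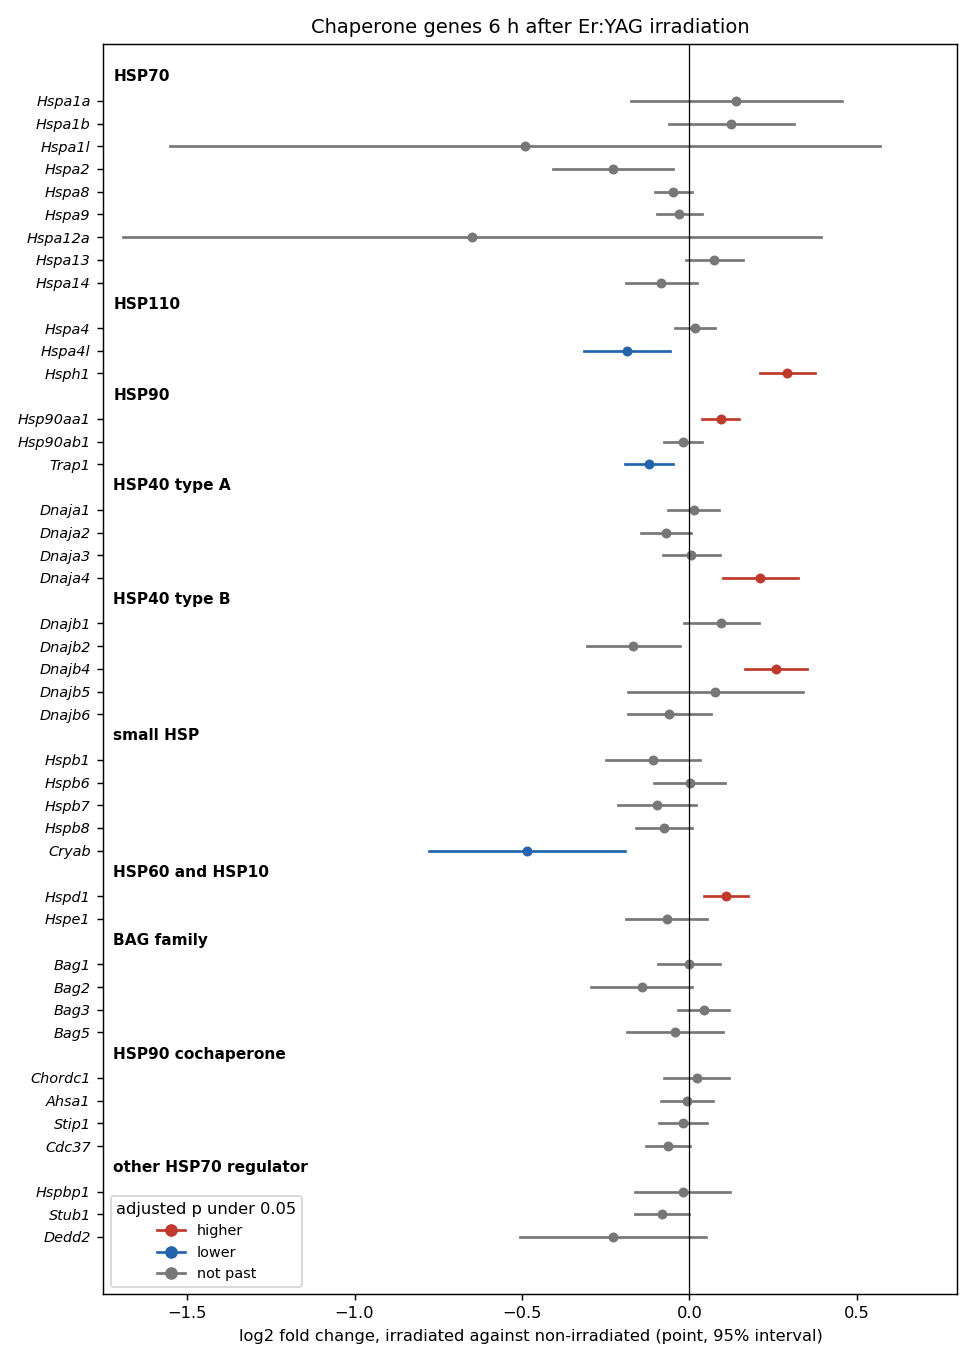
Log2 fold change of each tested chaperone gene, irradiated against non-irradiated, with its 95% interval from the edgeR fit (4 libraries per group), ordered by class. Red marks the 5 genes past the threshold and higher, blue the 3 that were lower, and grey the 34 others, and the points of 26 genes lie within 0.1 of 0.

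By level, a few genes made up most of the chaperone RNA. Per kilobase of transcript, Hsp90ab1, the constitutive cytosolic HSP90, stood at 628 ± 16.2 CPM per kb in non-irradiated cells (SD, n = 4). Hspa8, the constitutive HSP70, stood at 618 ± 11.1, and the libraries of these genes overlapped. Hsp90aa1, the more inducible cytosolic HSP90, followed at 331 ± 3.48 CPM per kb. Next came the mitochondrial genes Hspd1 (HSP60) at 171 ± 5.02 and Hspa9 (mitochondrial HSP70) at 169.7 ± 7.29 CPM per kb, which also overlapped. The heat-inducible Hspa1b and Hspa1a were in the lower part of the order, at 6.50 ± 0.827 and 1.86 ± 0.0616 CPM per kb. Below Hspa1a were only Hspa1l at 0.597 ± 0.266 and Hspa12a at 0.134 ± 0.0737 CPM per kb, in addition to Hspb2, which was not tested. A transcript length that differs from the one used would shift a gene in this order. So would another assignment of counts between copies. Hspa8 with its pseudogenes summed stood at 2563 ± 40.6 CPM in non-irradiated cells, against 1478 ± 26.5 CPM for Hspa8 alone.

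**Figure D2:**
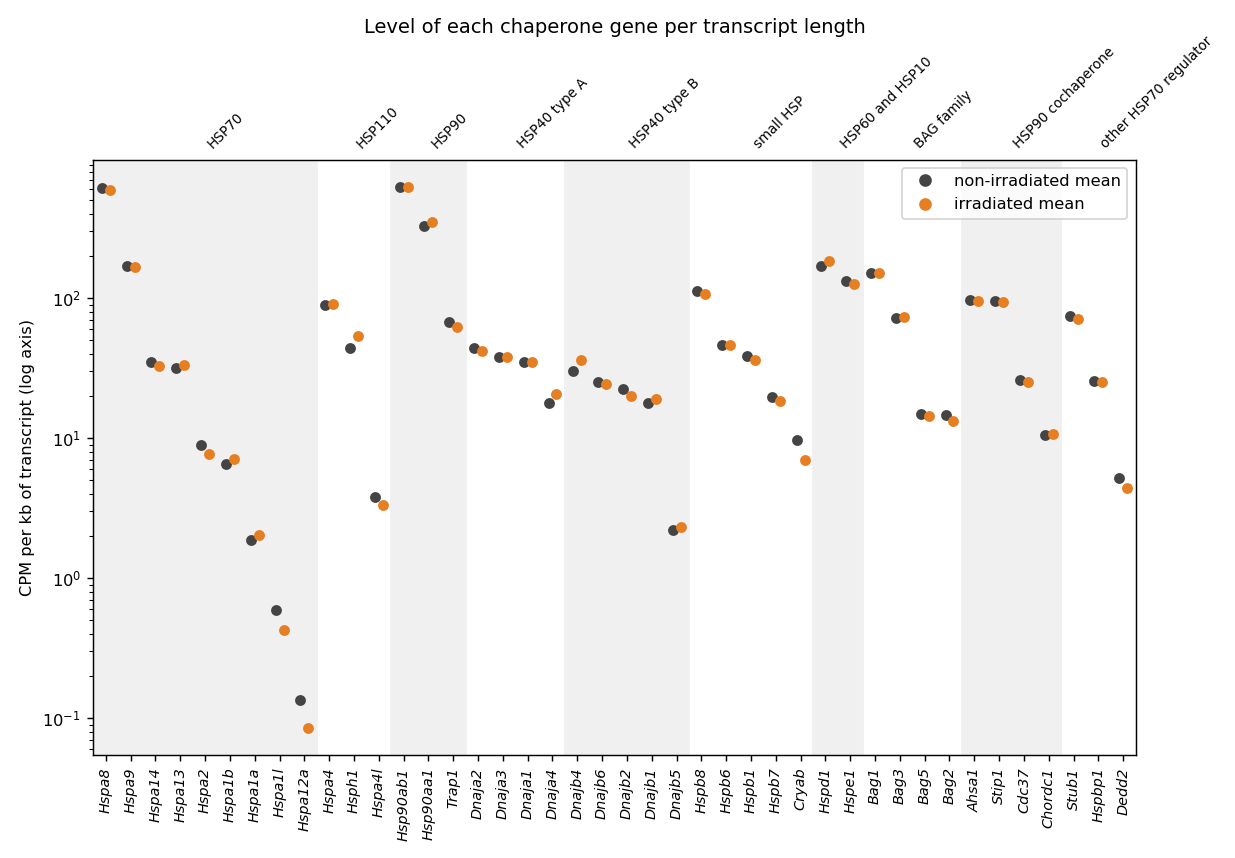
Mean level of each tested chaperone gene in CPM per kb of its principal transcript, on a log axis, by class and in falling order within a class. Dark grey is the mean of the 4 non-irradiated and orange the mean of the 4 irradiated libraries, and the levels span from over 600 CPM per kb (Hsp90ab1 and, in non-irradiated cells, Hspa8) to under 1 (Hspa1l and Hspa12a).

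None of the 9 HSP70 genes passed the test. Hspa1a, which heat induces strongly in most cells, gave 5.73, 5.29, 5.57 and 5.51 CPM in C5 to C8 and 6.36, 7.06, 4.43 and 6.46 CPM in L5 to L8. The irradiated libraries lay on both sides of the non-irradiated ones, with L7 lowest and L6 highest. The log2 fold change was 0.14 (SE 0.151, edgeR adjusted p = 0.619), and the 95% interval of the fold change ran from 0.885 to 1.37. Its near-identical copy Hspa1b gave 16.4, 16.1, 20.2 and 20.2 CPM in C5 to C8 and 21.2, 20.4, 18.8 and 19.1 CPM in L5 to L8. C5 and C6 were lowest, while C7 and C8 lay among the irradiated libraries. The log2 fold change was 0.12 (SE 0.0890, edgeR adjusted p = 0.403), with a fold interval of 0.958 to 1.24. Of all 75-base windows in the Hspa1a transcript 54.2% also occur in transcripts of Hspa1b or Hspa1l, so reads can be split between these genes. With Hspa1a and Hspa1b summed, an alternative added after the data were seen, the pair stood at 23.7 ± 2.36 against 26.0 ± 2.01 CPM. Its log2 fold change was 0.13 with an SE of 0.0797, and edgeR gave an adjusted p of 0.325.

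Hspa8 folds newly made proteins and strips clathrin from vesicles. It gave 1505, 1449, 1464 and 1496 CPM in C5 to C8 and 1432, 1374, 1441 and 1471 CPM in L5 to L8. L6 was lowest and the groups overlapped (log2 fold change -0.049 ± 0.0266 SE, adjusted p = 0.252 by edgeR, fold interval 0.930 to 1.00). Hspa8 took 65.9% of the summed HSP70 CPM in non-irradiated and 65.4% in irradiated cells, Hspa9 took 23.1% and 23.2%, and Hspa1a with Hspa1b took little more than 1%. The table also gives counts to Gm15459, at 1033 ± 19.8 against 1055 ± 21.2 CPM, an annotated processed pseudogene of Hspa8. That is 69.8% and 73.8% as many counts as Hspa8 itself, and 68.0% of the 75-base windows in the Hspa8 transcript occur in transcripts of other genes. Gm15459 missed the threshold (log2 fold change 0.031 ± 0.0261 SE, adjusted p = 0.49 by edgeR). Hspa8 with its 9 pseudogenes summed gave a log2 fold change of -0.016 (SE 0.0237, edgeR adjusted p = 0.735). The level given to Hspa8 thus depends on how its copies were counted.

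The other HSP70 genes also missed the threshold. Hspa9, which pulls proteins into mitochondria and folds them there, stood at 517 ± 22.2 against 507 ± 9.72 CPM, a log2 fold change of -0.030. Hspa13 had a log2 fold change of 0.074 (SE 0.0404, adjusted p = 0.248), and it passed the test without C6 (0.11, adjusted p = 0.0296). Hspa14, which works with the J protein Dnajc2 on ribosomes, had -0.084 (SE 0.0505). Hspa2, best known from sperm development, was at 22.7 ± 2.05 against 19.4 ± 2 CPM, with a log2 fold change of -0.23 and an adjusted p of 0.0818. Hspa1l, mostly a testis gene, and Hspa12a, a distant relative, were barely detected. Their counts summed over 4 libraries were 282 and 147 in non-irradiated cells and 200 and 93 in irradiated ones. At that depth their fold changes were only bounded to 0.342 to 1.48 and 0.310 to 1.31.

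The HSP110 genes, whose products are exchange factors for HSP70, moved in different directions. Hsph1 (HSP105), an HSF1 target, gave 155, 159, 143 and 151 CPM in C5 to C8 and 191, 188, 176 and 191 CPM in L5 to L8. All irradiated libraries lay above all non-irradiated ones. It rose 1.22-fold (log2 fold change 0.29 ± 0.0392 SE, adjusted p = 2.54e-05 by edgeR). Hspa4l gave 35.4, 37.7, 37.9 and 33.7 CPM in C5 to C8 and 33.1, 32.6, 31.6 and 29.7 CPM in L5 to L8. The groups did not overlap, though C8 and L5 nearly met. It fell 1.14-fold (log2 fold change -0.19 ± 0.0613 SE, adjusted p = 0.0448 by edgeR). This call was lost with limma-voom (0.0559), with no expression filter (0.0567) and with libraries blocked by column number (0.0634). Of the 8 fits that left out a library, C8 was the one whose removal kept the call (at worst, without C7, adjusted p = 0.136). Hspa4, the most abundant of the class, stood at 414 ± 4.24 against 419 ± 10.1 CPM, a log2 fold change of 0.017 (adjusted p = 0.767). Summed over the class, libraries ran from 593 to 613 CPM without and from 625 to 646 CPM with irradiation, and Hsph1 made most of that gap.

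**Figure D3:**
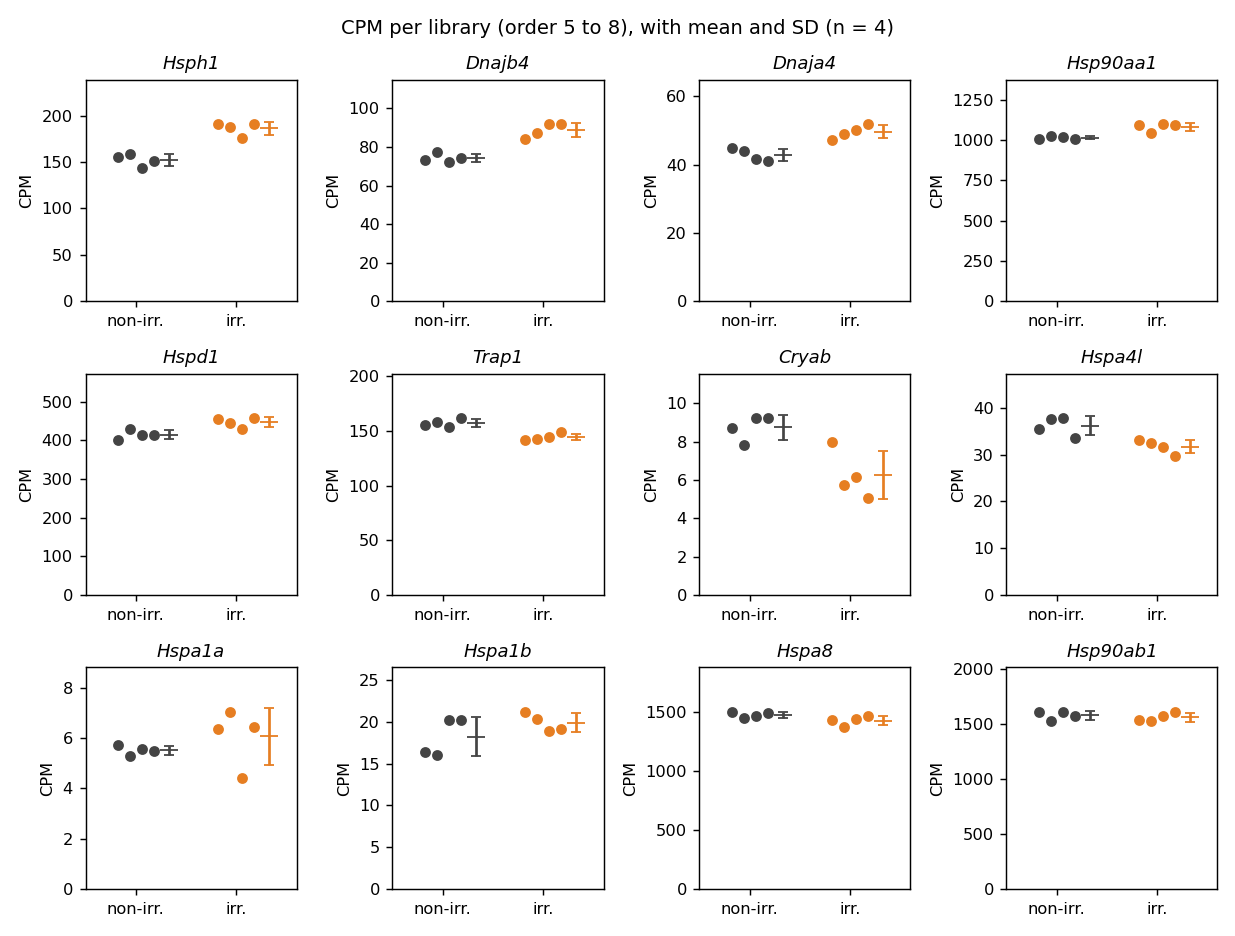
CPM in each library for the 8 chaperone genes that passed the test (upper and middle rows) and for Hspa1a, Hspa1b, Hspa8 and Hsp90ab1, with points in the order 5 to 8 and the mean and SD of 4 libraries beside them; each axis starts at 0. The groups do not overlap for Hsph1, Dnajb4, Dnaja4, Hsp90aa1, Trap1 and Hspa4l, and overlap for Hspd1, Cryab and the 4 genes of the lower row.

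Of the 3 HSP90 genes 1 rose, 1 fell and 1 did not pass. Hsp90aa1 gave 1006, 1026, 1019.7 and 1005 CPM in C5 to C8 and 1094, 1042, 1099 and 1091 CPM in L5 to L8. Every irradiated library was above every non-irradiated one, L6 by little, and the rise was 1.07-fold (log2 fold change 0.093 ± 0.0259 SE, adjusted p = 0.0194 by edgeR). The call held without C6, C7 or L6, but was lost when any of the others was left out (at worst, without L7, adjusted p = 0.0639). It was also lost with library totals alone (0.0687) and with libraries blocked by column number (0.0661). Hsp90aa1 shares 53.1% of its 75-base windows with 3 pseudogenes, which held few counts beside it (Gm12346, the largest, 2.33% as many), and with them summed the log2 fold change was 0.096 (adjusted p = 0.0153). Hsp90ab1 gave 1613, 1528, 1613 and 1572 CPM in C5 to C8 and 1533, 1530.4, 1569.8 and 1612 CPM in L5 to L8, and its groups overlapped (log2 fold change -0.019 ± 0.0268 SE, adjusted p = 0.729).

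Trap1, the HSP90 of mitochondria, fell. It gave 155, 158, 154 and 162 CPM in C5 to C8 and 142, 143, 144 and 149 CPM in L5 to L8. All irradiated libraries were below all non-irradiated ones, a 1.09-fold difference (log2 fold change -0.12 ± 0.0342 SE, adjusted p = 0.0199 by edgeR). Without C8, L5, L6 or L7 it no longer passed (at worst, without L5, adjusted p = 0.0660). Exons of Trap1 overlap those of Dnase1 on the other strand, and whether the authors counted by strand is not given in the sources used here.

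Among the HSP40 genes 1 of 4 of type A and 1 of 5 of type B rose, and the others did not pass. Dnajb4, a cytosolic type B J protein, gave 73, 77.2, 72.3 and 74.4 CPM in C5 to C8 and 84.2, 87.4, 91.8 and 91.7 CPM in L5 to L8. The groups were apart, with the lowest irradiated library (L5) above the highest non-irradiated one (C6), and the rise was 1.20-fold (log2 fold change 0.26 ± 0.0438 SE, adjusted p = 0.000319 by edgeR). Dnaja4, a type A J protein, gave 44.8, 43.9, 41.5 and 41 CPM in C5 to C8 and 47.3, 48.9, 50.2 and 51.9 CPM in L5 to L8. Its exons overlap those of Wdr61 on the other strand. Its groups did not overlap either, and it rose 1.16-fold (log2 fold change 0.21 ± 0.0529 SE, adjusted p = 0.00911).

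Dnajb1, the J protein that heat induces with Hspa1a, gave 53.6, 51, 55.3 and 54.2 CPM in C5 to C8 and 62.5, 54.4, 56.7 and 55.1 CPM in L5 to L8. L5 was high and the other 3 irradiated libraries were among or just above the non-irradiated ones (log2 fold change 0.095 ± 0.0534 SE, adjusted p = 0.265 by edgeR, fold interval 0.989 to 1.15). Dnajb2, a neuronal J protein that steers clients to the proteasome, had -0.17 (adjusted p = 0.0998) and passed without L7 (-0.22, adjusted p = 0.0478). Dnaja2, a general HSP70 partner, was lower in every irradiated library without passing the test (128 ± 2.34 against 122 ± 2.98 CPM, log2 fold change -0.070, adjusted p = 0.213). Dnaja1, the most counted type A gene, the mitochondrial Dnaja3, Dnajb5 and Dnajb6, which keeps aggregation-prone proteins soluble, had log2 fold changes from -0.060 to 0.077.

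Of the 5 tested small heat shock protein genes 1 fell. Cryab (alpha B-crystallin), which holds unfolding filament proteins, gave 8.70, 7.81, 9.23 and 9.25 CPM in C5 to C8 and 8.01, 5.76, 6.16 and 5.08 CPM in L5 to L8. L5 lay within the non-irradiated range and the other 3 irradiated libraries lay below it, so the groups overlapped. The difference was 1.40-fold (log2 fold change -0.48 ± 0.140 SE, adjusted p = 0.0230 by edgeR), and the call held without C6 or without L5 and was lost when any of the others was left out (at worst, without L8, adjusted p = 0.0826). Exons of Cryab overlap those of its neighbour Hspb2 on the other strand. Hspb2, a muscle gene, had 0, 0, 14 and 0 counts in C5 to C8 and 10, 0, 0 and 0 in L5 to L8, under the expression filter.

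Hspb1 (HSP25 in mouse), an HSF1 target that guards actin, gave 33.1, 32.2, 36.7 and 38 CPM in C5 to C8 and 30.8, 33.6, 34.6 and 30.9 CPM in L5 to L8. C7 and C8 were highest, and L5 and L8 lowest (log2 fold change -0.11 ± 0.0671 SE, adjusted p = 0.322 by edgeR). Hspb8, the class's most abundant gene and the partner of Bag3 in clearing damaged proteins, was at 205 ± 11.5 against 194 ± 6.22 CPM, a log2 fold change of -0.077 (adjusted p = 0.222). Hspb7 and Hspb6, both known from muscle, had log2 fold changes of -0.097 (SE 0.0562) and 0.00070 (SE 0.0507).

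HSP60 and its lid HSP10 form the folding chamber of mitochondria, and their genes are read in opposite directions from 1 shared start region. Hspd1 (HSP60) gave 400.2, 430.0, 414 and 414 CPM in C5 to C8 and 456, 446, 428 and 458 CPM in L5 to L8. C6 was above L7, so the groups overlapped by 1 library on each side, and Hspd1 rose 1.08-fold (log2 fold change 0.11 ± 0.0312 SE, adjusted p = 0.0221 by edgeR). The call was lost without C5, C7, L5 or L8 (at worst, without C5, adjusted p = 0.0829). It was also lost with library totals alone (0.0650) and with libraries blocked by column number (0.0603). Hspe1 (HSP10) gave 95.3, 96.2, 105 and 115 CPM in C5 to C8 and 106, 98, 92.1 and 97.2 CPM in L5 to L8. C8 and L5 were highest and the groups overlapped (log2 fold change -0.068 ± 0.0572 SE, adjusted p = 0.503). Of the 75-base windows of Hspd1 33.7% and of Hspe1 23.7% occur in other genes. With its 4 pseudogenes summed, an alternative added after the data were seen, Hspd1 had a log2 fold change of 0.11 (SE 0.0297, edgeR adjusted p = 0.0148). This sum ran from 416 to 436 CPM in C5 to C8 and from 439 to 468 CPM in L5 to L8. The groups then did not overlap, though C6 and L7 nearly met. Exons of Hspd1 and Hspe1 overlap each other on opposite strands.

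None of the 4 BAG genes, 4 HSP90 cochaperone genes and 3 genes listed as other HSP70 regulators passed the test. Bag3, an HSF1 target that ties HSP70 to autophagy, was at 184 ± 8 against 189.7 ± 4.17 CPM, and edgeR gave an adjusted p of 0.501 to its log2 fold change of 0.043. Bag1, Bag2 and Bag5, exchange factors of HSP70, had log2 fold changes of -0.00090, -0.14 and -0.044. The log2 fold changes of the HSP90 cochaperones were small: Chordc1 at 0.021, Ahsa1, which speeds HSP90's ATPase, at -0.0070, Stip1, which links HSP70 to HSP90, at -0.019 and Cdc37, which loads kinases, at -0.063 (SE 0.0314 to 0.0465). Cdc37 was lower in every irradiated library (206 ± 2.29 against 197 ± 4.15 CPM, adjusted p = 0.204). Stub1 (CHIP), the ubiquitin ligase of bound clients, had -0.081 (adjusted p = 0.178), the exchange factor Hspbp1 -0.020 and Dedd2, a death effector domain protein, -0.23.

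In 8 of the 42 genes the CPM of the groups did not overlap, 4 higher (Hsph1, Hsp90aa1, Dnaja4, Dnajb4) and 4 lower (Hspa4l, Trap1, Dnaja2, Cdc37). Over all tested genes this held in 18.5%. Of the 5 mitochondrial members Hspd1 rose, Trap1 fell, and Hspa9, Hspe1 and Dnaja3 did not pass.

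Pairs of paralogs or partners were also compared within each library, where the scaling between libraries cancels. The 6 pairs were chosen after the values were seen, so these values describe the data and are no independent support. Between Hsph1 and Hspa4 the log2 ratio was -1.44 ± 0.0610 without and -1.17 ± 0.0768 with irradiation (SD, n = 4), a difference of 0.27. For Hsp90aa1 to Hsp90ab1 it came to -0.64 ± 0.0469 without and -0.53 ± 0.0358 with irradiation, a difference of 0.11. For Dnaja4 to Dnaja1 the values were -1.87 ± 0.0847 without and -1.67 ± 0.0716 with irradiation, a difference of 0.20. In these 3 pairs all irradiated libraries lay above all non-irradiated ones, and the two-sided exact permutation test gave p = 0.0286, the smallest that 4 libraries against 4 allow (adjusted over the 6 pairs, 0.0572).

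The other 3 pairs overlapped between groups. The log2 ratio of Hspd1 to Hspe1 was higher by 0.17 in irradiated libraries (exact permutation p = 0.0571, adjusted 0.0856), with C6 among them. Dnajb4 to Dnajb1 was higher by 0.16 (exact permutation p = 0.114, adjusted 0.137), with L5 among the non-irradiated libraries. Hspa1b to Hspa8, the inducible against the constitutive HSP70, was higher by 0.18 (exact permutation p = 0.171), and the non-irradiated libraries alone spanned from -6.52 to -6.18.

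**Figure D4:**
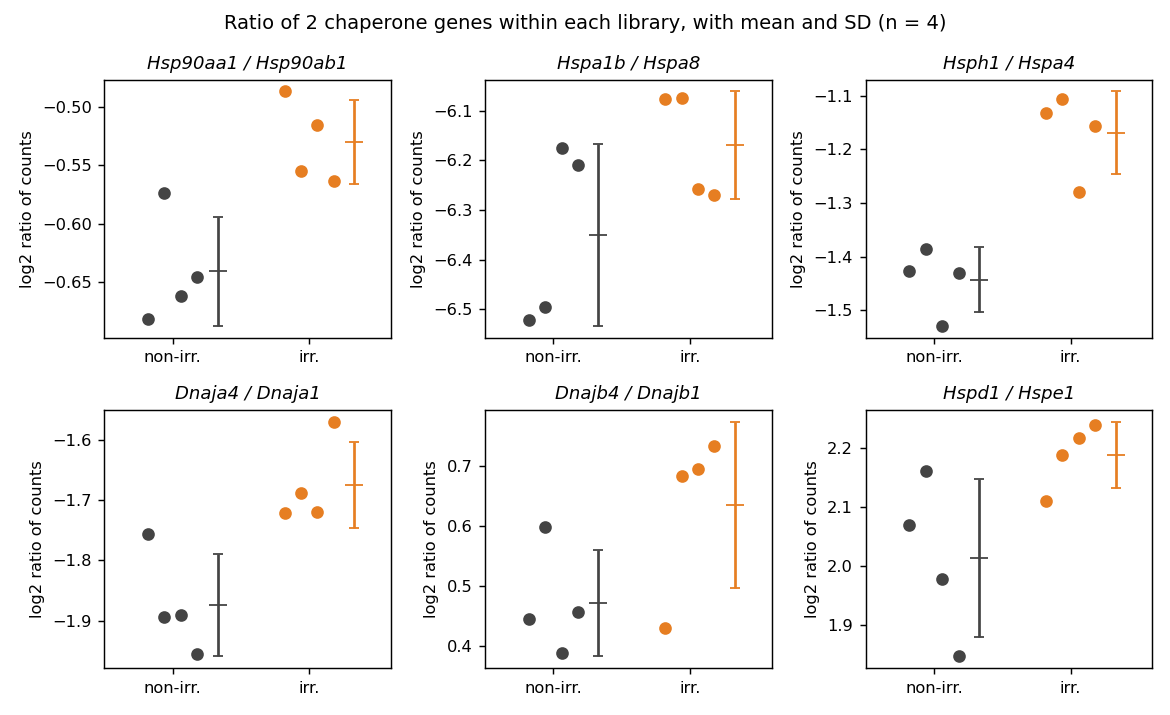
Log2 ratio of the counts of 2 chaperone genes within each library (points, in the order 5 to 8) with the mean and SD of 4 libraries; the axes do not start at 0 because the values are log ratios. The irradiated libraries lie above all non-irradiated ones for Hsp90aa1/Hsp90ab1, Hsph1/Hspa4 and Dnaja4/Dnaja1 and overlap with them in the other 3 pairs.

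Promoter windows from RefSeq (GRCm38.p6, 250 bases before to 50 after a start site) were found for 36 of the 43 genes, and not for Hspa8, Hspa9, Hspa13, Hsp90aa1, Hsp90ab1, Hspb2 and Cryab. They were searched for heat shock elements because HSF1 binds there. A 3-unit element, GAANNTTCNNGAA or its reverse complement TTCNNGAANNTTC, occurred in 5 of the 36 genes (13.9%), against 0.662% of all 27025 genes with a window. The genes were Hsph1, Hspd1, Hspe1, Chordc1 and Dnajb6. The single-junction forms GAANNTTC and TTCNNGAA, each its own reverse complement and part of the longer element, occurred in 14 (38.9%) and 7 (19.4%) of the 36 genes, against 9.04% and 9.6% of all genes. Dnajb1, which has a window, matched none of these forms. Only exact matches within a window were counted, so the lack of a match does not show that a gene has no heat shock element. A match describes letters and is no proof of binding, which was not measured.

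The strongest riser, the Hspd1 and Hspe1 pair and the 2 other genes with a full element are shown 5′ to 3′ on the gene's strand, with matched letters in capitals. The Hspe1 stretch ends at its last base before the start (chr1:55088049-55088147 on the plus strand), and the Hspd1 stretch is the same element read from the other strand (chr1:55088053-55088082 on the minus strand). The first Hsph1 stretch ends at an annotated start site and holds a short form (chr5:149636337-149636396 on the minus strand). The second holds the full element (chr5:149636282-149636303 on the minus strand). It lies just inside the transcript, whether counted from that start site or from another annotated one downstream of it. Those of Chordc1 (chr9:18292257-18292286 on the plus strand) and Dnajb6 (chr5:29735838-29735877 on the plus strand) complete the set.
Hspe1: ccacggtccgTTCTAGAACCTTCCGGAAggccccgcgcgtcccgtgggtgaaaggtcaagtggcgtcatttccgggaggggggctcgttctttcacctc
Hspd1: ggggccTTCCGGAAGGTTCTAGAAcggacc
Hsph1, upstream: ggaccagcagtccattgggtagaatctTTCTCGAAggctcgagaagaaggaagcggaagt
Hsph1, full element: agaTTCTGGAAAGTTCtcctca
Chordc1: caaccgGAACGTTCGGGAAAATTCCTGAAg
Dnajb6: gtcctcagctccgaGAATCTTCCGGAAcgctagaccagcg

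Of the 5 genes with a 3-unit element Hsph1 and Hspd1 rose, while Hspe1, Chordc1 and Dnajb6 had log2 fold changes of -0.068, 0.021 and -0.060 and did not pass. Hspd1 and Hspe1 carry the very same element. The other risers with a window, Dnaja4 (chr9:54699459-54699518 on the plus strand) and Dnajb4 (chr3:152193846-152193885 on the minus strand), and the classical heat-induced pair Hspa1a (chr17:34972227-34972286 on the minus strand) and Hspa1b (chr17:34959309-34959368 on the minus strand) are shown for comparison. By exact match the windows of these genes hold only short forms, and elements with a changed letter or farther upstream were not searched for. The stretches of Hspa1a and Hspa1b are identical, and 296 of the 300 bases of their windows match.
Dnaja4: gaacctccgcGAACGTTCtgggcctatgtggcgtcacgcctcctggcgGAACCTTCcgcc
Dnajb4: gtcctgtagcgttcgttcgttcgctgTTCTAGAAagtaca
Hspa1a: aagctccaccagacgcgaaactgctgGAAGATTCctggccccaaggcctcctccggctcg
Hspa1b: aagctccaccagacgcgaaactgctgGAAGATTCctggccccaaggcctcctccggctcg

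Other chaperone genes came from lists outside the 43. Of 59 genes in 5 lists 3 rose, 3 fell and 53 did not pass, while 15.0% of all tested genes passed, and the median log2 fold change of the 59 was -0.016. All 8 subunits of TRiC, the cytosolic chaperonin for actin and tubulin, missed the threshold (median -0.0011). Of 6 prefoldin subunits, which hand substrates to TRiC, Pfdn5 fell (-0.16, edgeR adjusted p = 0.0296). Of 16 further HSP90 cochaperones Unc45a, which folds myosin with HSP90, rose (0.20, adjusted p = 0.00289) and Pih1d1, an adaptor of the R2TP complex, fell (-0.22, adjusted p = 0.0423).

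Among 13 further HSP70 partners St13 (HIP), which steadies HSP70 on its client, fell from 177 ± 4.20 to 158 ± 2 CPM (log2 fold change -0.16, edgeR adjusted p = 0.00164). Of 16 mitochondrial quality control genes, proteases and import motor parts, 1 rose, the protease gene Htra2 (0.21, adjusted p = 0.000817), and 15 did not pass.

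Library totals ran from 43786209 to 51734166 counts. On the second principal component (14.5% of the variance) C6, at -21.2, stood apart from the other non-irradiated libraries, and without it 6 chaperone genes were higher and 2 lower. The irradiated libraries spread more widely on that component, from -29.3 in L5 to 33.2 in L7. When library totals alone set the scale, 43.8% of all called genes were higher against 54.9% with TMM, and 3 chaperone genes were higher and 3 lower. Of 10 osteocyte markers Sost, Mepe and Fgf23 had 0 counts in all libraries, and of the 6 that were tested 3 rose and 2 fell, with a summed level of 1751 to 1797 CPM without and 1912 to 1966 CPM with irradiation. Of 6 macrophage markers Ptprc, Adgre1 and Tyrobp had 0 counts, while Csf1r rose from 14.2 ± 1.17 to 26.2 ± 1.20 CPM. Cd68 stood at 4.45 ± 0.459 against 3.52 ± 0.394 CPM (log2 fold change -0.34, edgeR adjusted p = 0.193), lower in every irradiated library, and Lyz2 had 7 counts over the non-irradiated and 4 over the irradiated libraries. The list's summed level was 17.5 to 21.0 CPM without and 27.9 to 31.0 CPM with irradiation. Endothelial, epithelial, skeletal muscle and adipocyte lists, of 5 genes each, summed to at most 0.72 CPM in any library. The part of these marker differences in the chaperone changes was not tested.

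Hsph1, Dnajb4 and Dnaja4 passed the test in all 18 alternatives tried, 8 of which left out 1 library. Their adjusted p reached at most 0.000333, 0.00313 and 0.0406. The other 5 called genes kept their direction in all 18 and lost the call in 4 to 10 of them.

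**Figure D5:**
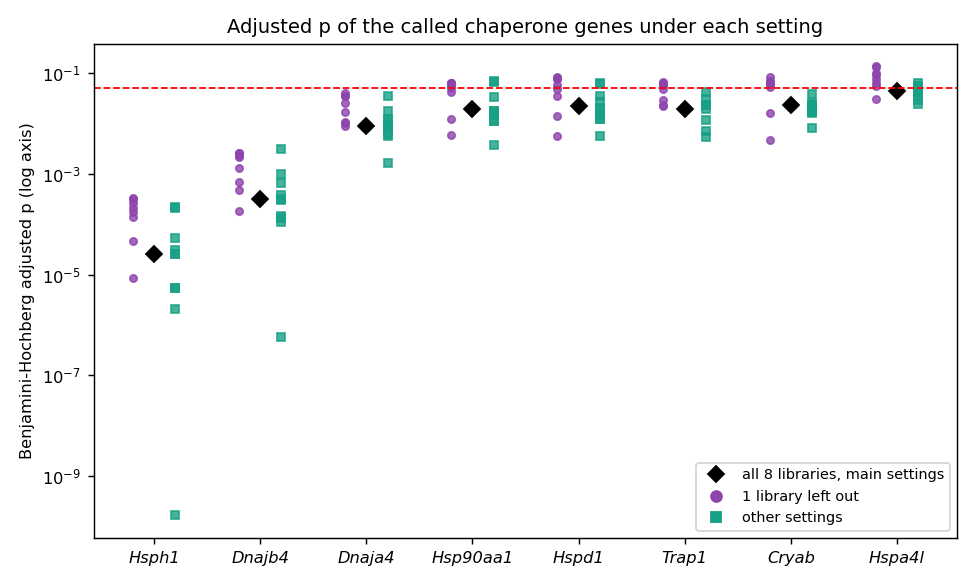
Benjamini-Hochberg adjusted p (log axis) of the 8 called chaperone genes with all libraries and the main settings (black), with 1 library left out (purple, 8 values) and under 10 other settings (green); the dashed line is 0.05. All values of Hsph1, Dnajb4 and Dnaja4 lie under the line, and those of the other 5 genes fall on both sides.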

How the data were processed

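The authors deposited 1 table of estimated counts per gene for the 8 libraries, whole numbers in which 4 is commoner than 3 or 5, so they are not plain read counts. Per the submitters' processing notes, Trimmomatic 0.39, FastQC 0.11.9, HISAT2 2.2.1, StringTie 2.1.7, DESeq2 1.32.0 and the build GRCm39 were named, and the strand setting is not given in the sources used here. Column names matched the groups of the labels but not single samples.

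The estimated counts were tested as deposited with edgeR 4.0.16 (R 4.3.3): filterByExpr with a minimum count of 10, TMM factors (0.989 to 1.01), robust quasi-likelihood fit, and Benjamini-Hochberg adjustment over 15164 genes at 0.05. Fold intervals are 95% and come from that fit. Library totals of 43786209 to 51734166 put 3 counts at 0.058 to 0.0685 CPM. Gene symbols, transcript lengths (principal transcripts) and shared 75-base windows came from GENCODE M21, which is not of the authors' build. Every pair of libraries within a group differed by more than the sampling noise of plain read counts (chi-square per degree of freedom 9.08 to 16.3). Because the deposited values are not plain read counts, this cannot tell whether the libraries of a group are repeats of the same culture.

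The genes and lists were chosen with earlier results of these data known. All 43 genes are accounted for: called genes and 7 well-known ones with the value of every library, the others by fold change, interval or range, and called genes of related lists by lowest p, at most 3 a list; 1 called gene of those lists is not reported here. Alternatives were other scalings, DESeq2 1.42.0, limma-voom (limma 3.58.1), other filters, counts divided by 4, a replicate block, leaving out each library, and, added after the data were seen, pseudogene counts added to their parent genes.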

Additional observations from a re-analysis of the deposited data

Results flagged for a closer look

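In 4 of 84 groups of 4 libraries (each tested chaperone gene in each condition) 1 library lay far from the other 3, its gap to the nearest of them taking nearly the whole range of the group; chance flags about 1 group in 20. Hsp90aa1 was at 1042 CPM in L6 and at 1091 to 1099 CPM in the other irradiated libraries (gap 0.866 of the range). Hspbp1 was at 41.9 CPM in L6 and at 39.2 to 39.6 CPM in the others (0.853). Bag2 was at 22.9 CPM in L7 against 24.8 to 25.2 CPM (0.853). Ahsa1 was at 127 CPM in C6, and its other 3 non-irradiated libraries all lay at 135 CPM (0.927).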

How the results depend on the processing

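The 8 called chaperone genes kept their direction in all 18 alternatives, and Hsph1, Dnajb4 and Dnaja4 kept the call. The number of higher genes was 3 with library totals alone, without Hsp90aa1 and Hspd1, and ran from 3 to 6 when 1 library was left out. The number of lower genes ran from 0 (without L6) to 2. The cause was not tested, but a left-out library also means fewer samples. The 34 other genes gave 610 values, of which 2 passed the threshold (Hspa13, Dnajb2). The direction reversed in 10 of these genes and never in a called value. Bag1 became 0.0018 with DESeq2 size factors and with the DESeq2 Wald test, 0.0048 with a filter of 1 CPM and 0.0039 with counts divided by 4. With library totals alone Hspa4 became -0.0056, Dnaja1 -0.011, Dnaja3 -0.017, Hspb6 -0.022 and Chordc1 -0.0011, and with upper-quartile factors Dnaja3 -0.0039 and Hspb6 -0.0086. Hspb6 was -2e-04 with limma-voom. With 1 library left out, Dnaja1 ran from -0.006 to 0.031, Ahsa1 from -0.028 to 0.011, Stip1 from -0.034 to 0.0037, Hspb6 from -0.034 to 0.028, Dnaja3 from -0.009 to 0.039, Bag1 from -0.033 to 0.037, Bag5 from -0.086 to 0.016 and Hspbp1 from -0.065 to 0.043. Depth limits Hspa1l, Hspa12a and Hspb2.

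The columns of both groups are numbered 5 to 8. Same-numbered libraries did not deviate together (correlations -0.046 to 0.0014, none best with its own number). With 4 libraries per group this cannot exclude that the numbers pair them. A fit with the replicate block called 1006 genes higher and 751 lower over all genes, and 3 chaperone genes higher and 2 lower. In it Hsp90aa1 (adjusted p = 0.0661), Hspd1 (0.0603) and Hspa4l (0.0634) did not pass, and Hspb6 was -2e-04 in it.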
